A study of Mus musculus with 8 samples.

Results

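Cholesterol synthesis, its control by SREBP2 and the intracellular handling of sterols were examined through 30 genes of mouse liver. They were found by gene symbol in the authors' deposited table of 27179 genes, where each had 1 row. The list was made from function. It held 8 enzymes of the mevalonate and isoprenoid route and 11 enzymes from squalene synthase to cholesterol. It also held 5 genes grouped as SREBP2 control and 6 genes of sterol trafficking and esterification. Mylip, in the control group, encodes a ligase induced by the sterol-sensing LXR factors and is not a part of the SREBP2 machinery. RNA was sequenced as stranded poly-A paired-end libraries from the livers of 4 wild-type and 4 homozygous mutant mice. All were adult C57BL/6NHsd males fasted for 6 h. The mutants carried the V227A change of PPARɑ, an alanine in place of a valine, written into the germline by adenine base editing. The colony descended from 1 heterozygous founder that was backcrossed to the same strain, and every cell of the mutants carries the allele.

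The values below are levels over all 8 livers together. The table holds the authors' contrast of V227A with wild-type and 1 level for each gene, the average log2 CPM. CPM are read counts scaled to a common library total. The average log2 CPM was taken here as the log2 of the mean over the libraries, with a small prior count added for each gene. The columns of the authors' own contrast were not used here. Values per liver were not analysed here. No difference between the genotypes and no spread between mice can therefore be given, and the levels describe this liver set as a whole.

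Hepatocytes make cholesterol from acetyl-CoA. The mevalonate route builds isoprene units and joins them to farnesyl diphosphate, squalene synthase commits this to sterols, and a series of membrane enzymes turns lanosterol into cholesterol. When membrane cholesterol is low, SCAP escorts SREBP2 from the endoplasmic reticulum to the Golgi, where proteases release its transcription factor domain. INSIG proteins hold SCAP back when sterols are plentiful. The released factor binds sterol response elements, commonly beside sites for the factor NF-Y, and switches on genes of synthesis and uptake.

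The promoters of the list were searched for the letters of such sites. RefSeq windows of 300 bases, 250 before and 50 after each start site on GRCm38.p6, were found for 24 of the 30 genes. Letters were searched on both strands. The sequence below is the 250 bases before the start of Hmgcs1, which encodes the cytosolic HMG-CoA synthase, at chr13:119690101-119690350 on the plus strand. It is shown because it was the only window of the 24 genes with the sterol response element letters TCACNCCAC. Capitals mark that element, which begins 137 bases before the start, and 3 NF-Y boxes (CCAAT, here read as ATTGG on the shown strand).
Hmgcs1 upstream: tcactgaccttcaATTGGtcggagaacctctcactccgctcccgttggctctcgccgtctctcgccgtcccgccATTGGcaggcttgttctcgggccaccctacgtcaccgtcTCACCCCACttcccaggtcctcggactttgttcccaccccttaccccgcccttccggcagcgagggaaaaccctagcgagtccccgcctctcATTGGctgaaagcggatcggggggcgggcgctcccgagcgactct

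The element TCACNCCAC was thus found in 1 of 24 genes (4.167%), against 1.436% of all 27025 genes with a window. An absent match says only that these letters are not in this window. Counted by gene, the NF-Y box was the commonest of the letters searched: 22 of 24 genes (91.67%) had it, against 41.06% of all genes with a window. Among 8926 other coding genes with an average log2 CPM of at least 0, 42.72% had it. Acat2 and Scap were the 2 genes without it. In total the windows held 47 NF-Y boxes. Of these, 23 began between 150 and 31 bases before the start (median over the 47, 60 bases before it). Among the genes, 8 had 3 or more, with 5 in Mvk, the mevalonate kinase gene. Neither the positions nor the numbers of boxes per gene were compared with those of other genes. The GC box GGGCGG was found in 21 of 24 genes (87.5%), against 68.32% of the other coding genes at that level and 38.2% of all genes. The other coding genes at that level thus held this box more often than all genes with a window, a contrast in which coding status and level both differ. Base composition was not matched in any of these shares, and genes with several windows have more chances of a match. Of the 24 genes, 4 had more than 1 window. Counted by window, the NF-Y box was in 22 of 30 (73.33%), against 37.41% of all windows. The GC box was in 24 of 30 (80%), against 35.66%.

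NF-Y boxes are shown for 5 genes at different steps, with 10 bases on each side and the box in capitals: Ebp (chrX:8193553-8193577, minus strand), Tm7sf2 (chr19:6067883-6067907, minus), Cyp51 (chr5:4104712-4104736, minus), Mvk (chr5:114444192-114444216, plus) and Srebf2 (chr15:82147124-82147148, plus). The box begins 55, 47, 29, 67 and 135 bases before the respective starts.
Ebp: ccctgtactgATTGGttcgtcagat
Tm7sf2: cccagcgctgATTGGctactgtgct
Cyp51: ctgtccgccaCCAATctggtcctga
Mvk: tgaagttcccATTGGttaatgtttg
Srebf2: tcgcgcgccgATTGGctaatgcaag

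The palindromic E-box CACGTG, which SREBP proteins can also bind, was found in 5 of 24 genes (20.83%), against 11.99% of the other coding genes with an average log2 CPM of at least 0 and 8.093% of all genes. The 5 genes were Insig1, Scap, Hsd17b7, Dhcr7 and Sc5d, so both control genes and late sterol enzymes were among them. The matches are shown with their 10 neighbouring bases and the E-box in capitals, for Insig1 (chr5:28071301-28071326, plus), Scap (chr9:110333306-110333331, plus, in both of its overlapping windows), Hsd17b7 (chr1:169969333-169969358, minus), Dhcr7 (chr7:143823225-143823250, plus) and Sc5d (chr9:42264383-42264408, minus).
Insig1: tgggtgaggtCACGTGgctccggtgg
Scap: ccgccgggagCACGTGtggagggcgg
Hsd17b7: acccttgtgtCACGTGgctccgcccc
Dhcr7: ctgtgatgaaCACGTGgcaaaaagca
Sc5d: acgcggcgacCACGTGaccgccgcga
A direct repeat of AGGTCA with 1 base between the copies, a strict form of the site that PPARɑ binds with RXR, was in 0 of the 24 genes and in 0.0481% of all genes. At that rarity the search says little about 24 windows.

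**Figure D1:**
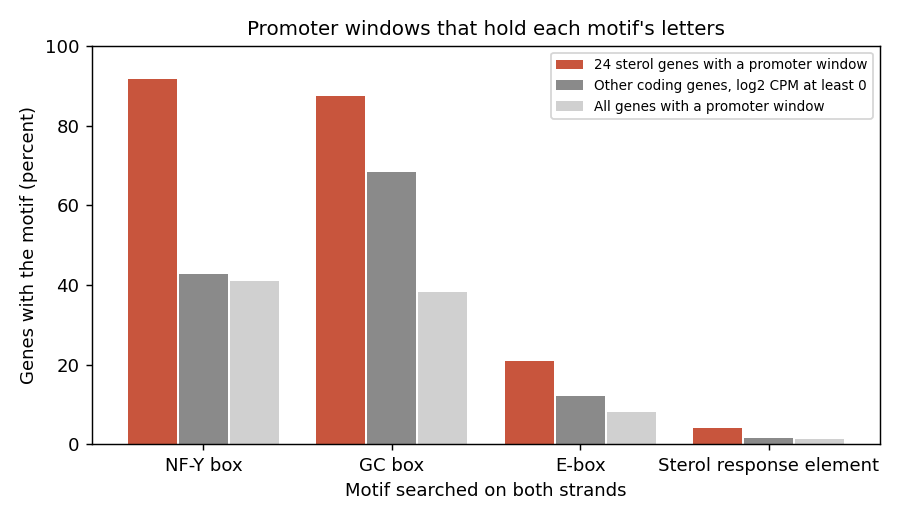
Share of genes (percent) whose promoter window holds each motif on either strand, for the 24 sterol genes with a window (red), other coding genes with an average log2 CPM of at least 0 (dark grey) and all genes with a window (light grey). The NF-Y box bar of the sterol genes stands at 91.67%, against 42.72% and 41.06%, and the sterol response element bar at 4.167%.

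The sequencing depth was estimated from the table itself. The 8242 genes at the lowest average log2 CPM, -3.78, were taken to have no reads, and with an assumed prior count of 2 that value gives an estimated mean effective library of 27473997 reads. All 30 genes were among the 18937 with reads. The label of the tissue held: 8 of 8 hepatocyte markers had an average log2 CPM between 10.51 (Tat) and 16.09 (Alb). Markers of other cells were lower, from 2.25 to 6.36 for 5 Kupffer cell and macrophage genes, 3.44 to 5.47 for 4 endothelial genes, 2.96 to 6.64 for 4 stellate genes and 0.39 to 2.30 for 4 cholangiocyte genes. The muscle markers ran from -1.46 (Myh4) to -0.40 (Acta1) and the adipocyte markers from -3.61 (Lep) to -1.63 (Adipoq), over 3 genes each. Pancreas, enterocyte and adrenal cortex lists had defining genes without reads (Cpa1 and Pnlip, Cdx2, and Cyp11b1), but also Cela1 at 4.90, Fabp2 at 6.43 and Star at 0.65.

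The sterol genes were mostly abundant. Their median average log2 CPM was 5.72, against 1.89 for all genes with reads, and 27 of 30 lay above that overall median. The upper quartile of all genes, 4.44, was passed by 22 of the 30. By role, 11 of 11 squalene-to-cholesterol enzymes, 5 of 5 control genes, 7 of 8 mevalonate genes and 4 of 6 trafficking genes were above the median. The 3 below it were Idi1, Soat1 and Npc1l1. The squalene-to-cholesterol enzymes held 52.3% of the summed CPM of the 30 genes, the control genes 21.8%, the mevalonate genes 14.2% and the trafficking genes 11.6%. Of the summed level per kilobase of the longest mRNA the mevalonate genes held 19.9%, above the control genes at 17.6%, and the trafficking genes 7.42%. By this length the order of the control and mevalonate groups was thus the reverse of that by CPM. Per kilobase of coding length or of all annotated exons the control genes stayed above the mevalonate genes, as in CPM.

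**Figure D2:**
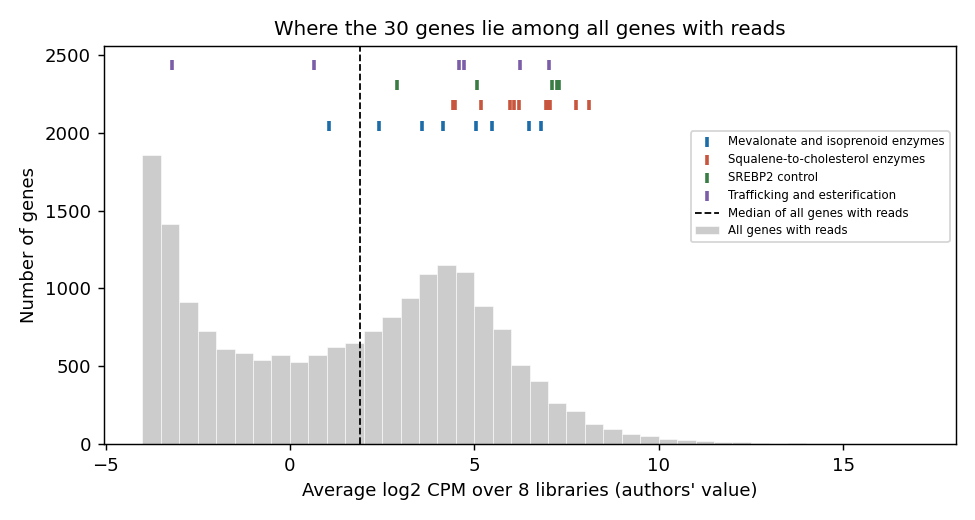
Histogram of the average log2 CPM of all 18937 genes with reads (grey bars, number of genes), with a tick above for each of the 30 sterol genes, coloured by role. The dashed line is the overall median, 1.89, and 27 of the 30 ticks lie to its right.

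Levels of single genes are compared below as CPM per kilobase of the longest annotated mRNA (GENCODE vM21), and a value in CPM is given beside a pair only to show what the length did. The choice of length matters for single genes, so the order was also taken per kilobase of coding length and of all annotated exons. Ebp, Idi1, Soat1 and Npc1l1 had the same place under all 3 lengths (1, 28, 29 and 30). For 26 genes the place moved by at most 5, and Tm7sf2, Scap, Npc2 and Stard4 moved by more. The spread over mice is not known, so only the counting error could be set beside a step in the order. Of the 29 steps between neighbours, 4 lay within the 95% counting intervals: Nsdhl and Cyp51, Mvd and Srebf2, Lss and Hsd17b7, and Hsd17b7 and Stard4. Of the 29 steps, 17 were smaller than 1.2-fold, so most neighbours are close in level.

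**Figure D3:**
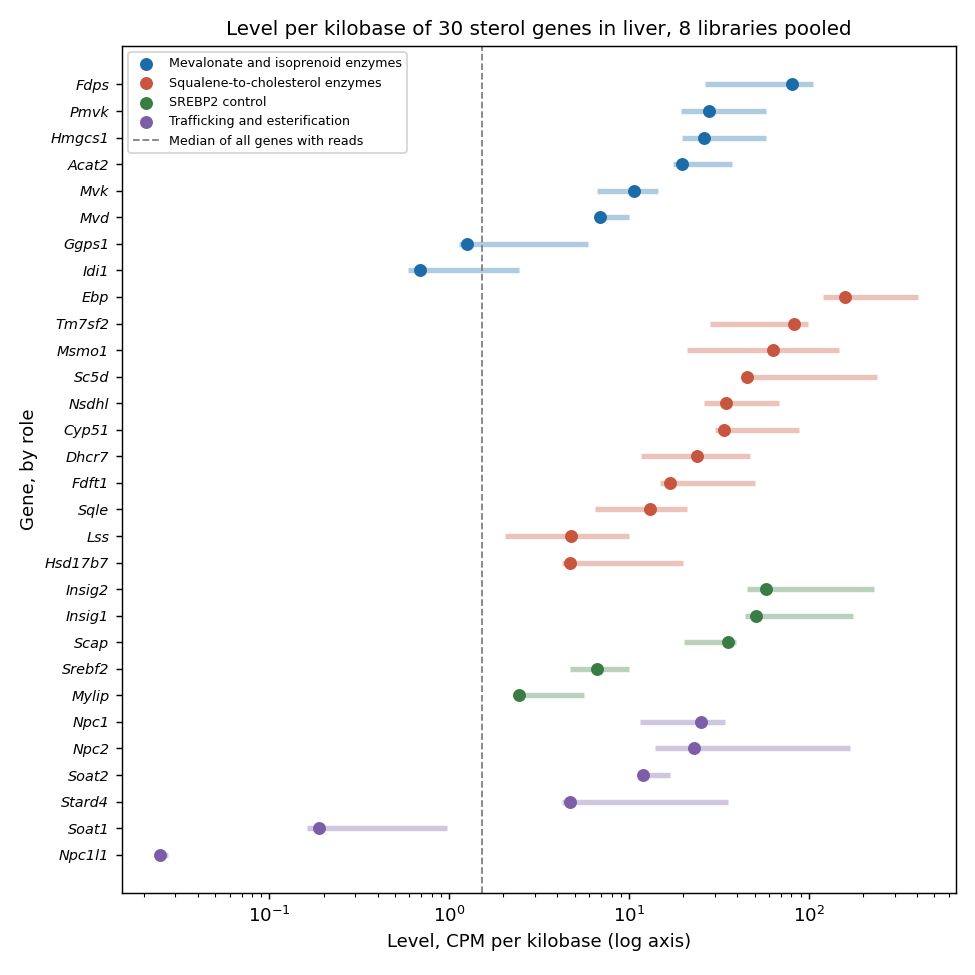
Level of each of the 30 genes as CPM per kilobase (log axis), grouped by role. Points use the longest mRNA, the pale bars span the values from the 3 lengths, and the dashed line is the median of all genes with reads, 1.53. Ebp is highest at 159.5 and Npc1l1 lowest at 0.0245, or 0.00824 without the assumed prior count.

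The mevalonate and isoprenoid enzymes ranged over 118-fold per kilobase. Acat2, the cytosolic thiolase that makes acetoacetyl-CoA, stood at 19.7 CPM per kilobase of mRNA, and Hmgcs1, the next enzyme, at 26.1. Mvk, which phosphorylates mevalonate, stood at 10.7, Pmvk, the phosphomevalonate kinase, at 27.7, and Mvd, the decarboxylase that yields isopentenyl diphosphate, at 6.88. Mvd lies wholly within Gm20388, an annotated coding gene of the opposite strand for which no level was found. The early steps thus lay within a few fold of each other. Fdps, the farnesyl diphosphate synthase on chromosome 3 (89093588 to 89101959, minus strand of GRCm38), was the highest of this group at 80.6 CPM per kilobase. Its annotation overlaps that of Gm43738, a coding gene on the same strand for which no level was found, over 7512 bases. Pmvk is the nearest member to it in the genome, with a gap of 352582 bases.

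Idi1 stood apart from these enzymes. It encodes an isopentenyl diphosphate isomerase, which makes the dimethylallyl diphosphate that Fdps also needs. The gene lies on chromosome 13 (8885501 to 8892451, plus strand). Its level was 0.685 CPM per kilobase, at percentile 44.3 of all genes with reads by CPM, from an estimated 54.96 reads per library. Fdps, the next enzyme, was 118-fold higher per kilobase, and Mvd, the step before, stood at 6.88. Ggps1, which uses farnesyl diphosphate to make the geranylgeranyl diphosphate of protein prenylation, stood at 1.26 CPM per kilobase. Fdps was 64.2-fold higher per kilobase than Ggps1. The size of these gaps depended on the length used: per kilobase of coding length Fdps stood at 105.1, Ggps1 at 5.92 and Idi1 at 2.44, and per kilobase of all annotated exons at 26.46, 1.13 and 0.592. Ggps1 shares 257 annotated bases with Arid4b on the opposite strand. Idi1 shares 323 with Gm48574, also on the opposite strand, for which no level was found.

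All 11 enzymes from squalene synthase onward were expressed between 4.675 and 159.5 CPM per kilobase. Fdft1, the squalene synthase, stood at 17.0, Sqle, the squalene epoxidase, at 13.1, and Lss, the lanosterol synthase that closes the rings, at 4.74. These first steps fell in that order along the route. Fdft1 overlaps Ctsb, a cathepsin gene of the opposite strand with an estimated 16007 reads per library, over 774 bases. The strand setting of the authors' counting is not given in the sources used here, so the value of Fdft1 is uncertain by what it may share with Ctsb. Lss overlaps 4930483K19Rik, an antisense gene with an estimated 0.876 reads per library, over 11268 bases.

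The enzymes that act on lanosterol and later sterols mostly stood higher per kilobase of mRNA, with the exception of Hsd17b7. Dhcr7, at 23.9 against 17.0 for Fdft1, was above Fdft1 by this length and below it by the other lengths. Cyp51, the lanosterol demethylase, was at 33.8 CPM per kilobase, and Tm7sf2, a sterol reductase of the next step, at 82.7. Msmo1, the methyl sterol oxidase, stood at 62.96 and Nsdhl, the decarboxylating dehydrogenase that works with it, at 34.4. Hsd17b7, the ketosteroid reductase of the same demethylation, was the lowest of the 11 at 4.675, next to Lss at 4.74. By the other lengths Lss was the lowest, at 10.06 per kilobase of coding length and 2.05 per kilobase of all annotated exons. The orders of Tm7sf2 over Cyp51 and of Msmo1 over Nsdhl also turned per kilobase of all annotated exons. By that length Tm7sf2 stood at 28.1 and Cyp51 at 30.1, and Msmo1 at 20.9 and Nsdhl at 26.2. Annotated bases are shared by Cyp51 with Akap9 (166, opposite strand) and by Tm7sf2 with Vps51 (532, same strand).

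Ebp, the sterol isomerase that moves a ring double bond, was the most abundant of all 30 genes. It lies on the minus strand of chromosome X, from 8185329 to 8193512 of GRCm38. Its average log2 CPM was 8.12, at percentile 97.7 of all genes with reads, from an estimated 7637 reads per library. Per kilobase it was 1.93-fold above Tm7sf2, the second gene by this length (the eighth by coding length), and 34.1-fold above Hsd17b7. Per kilobase of coding length Ebp stood at 402.95, Tm7sf2 at 98.8 and Hsd17b7 at 19.85, so the first gap was wider and the second narrower by that length. Ebp alone made up 18.3% of the list's summed level per kilobase of the longest mRNA. The top 5 genes by this length (Ebp, Tm7sf2, Fdps, Msmo1 and Insig2) made up 50.8%. By coding length and by all annotated exons Ebp and Insig2 stayed in the top 5, and Tm7sf2, Fdps and Msmo1 did not. Sc5d, the sterol desaturase that follows Ebp, stood at 45.1, and Dhcr7, the last reductase on the route through lathosterol, at 23.9.

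Within the control group, mRNA levels were widely split between the genes for proteins that hold or carry SREBP2 and Srebf2. Protein was not measured here. Srebf2, which encodes SREBP2, lies on chromosome 15 (82147181 to 82205379, plus strand) and stood at 6.67 CPM per kilobase. Scap, its escort, stood at 35.5. Srebf2 was at 0.188 times the level of Scap and at 0.131 times that of Insig1. Per kilobase of coding length the gap to Insig1 was wider, with Srebf2 at 9.98 and Insig1 at 176.3. Before division by length, Scap had 150.1 CPM and Srebf2 33.8, so the order of the pair did not come from length. Srebf2 shares 2110 annotated bases with Gm49502 on the same strand. Scap shares 3383 with 5830462I19Rik on the opposite strand. No level was found for either overlapping gene.

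Insig1 and Insig2 encode the proteins that retain SCAP in the endoplasmic reticulum, and Insig1 is itself a classic target of SREBP. Insig2 stood at 58.0 CPM per kilobase and Insig1 at 50.8, a log2 ratio of 0.19 for Insig2 over Insig1. Both have a longest mRNA of 2697 bases, so the ratio was the same in CPM. The log2 ratio was 0.39 per kilobase of coding length and 0.02 per kilobase of all annotated exons. The pair thus lay close together, at percentiles 95.9 (Insig2) and 95.3 (Insig1) of all genes with reads. Mylip, also known as IDOL, encodes a ubiquitin ligase induced by the sterol-sensing LXR factors. Mylip was the lowest gene of the control group, at 2.46 CPM per kilobase, and its protein does not hold or carry SREBP2.

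Srebf2 also hosts Mir33, a microRNA gene that represses cholesterol export. The hairpin lies on chromosome 15 at 82198122 to 82198190 of GRCm38, on the plus strand, in an intron between exons that end at 82197786 and start at 82199635. Mir33 was listed without reads, in libraries made from poly-A RNA, which do not capture mature microRNAs. So the host's level says nothing measured about the microRNA. The mature sequences from RefSeq (GRCm38.p6) are shown to identify it, with the seed (bases 2 to 8) in capitals.
mmu-miR-33-5p: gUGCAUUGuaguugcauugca
mmu-miR-33-3p: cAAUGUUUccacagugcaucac

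Trafficking and esterification genes had the widest range, from 0.0245 to 25.0 CPM per kilobase. The lower end, Npc1l1, was 0.00824 without the assumed prior count, so most of its stated level is that count. Npc1 and Npc2 work as a pair: NPC2 picks up cholesterol in the lysosome and hands it to NPC1 in the membrane. Npc1 stood at 25.0 CPM per kilobase and Npc2 at 22.97, a ratio of 0.918 for Npc2 over Npc1. This ratio turned with the length used, since the coding length of Npc2 is only 447 bases of a 3299-base mRNA: per kilobase of coding length Npc2 was at 169.5 and Npc1 at 34.1. Npc1 shares 967 annotated bases with Rmc1 on the opposite strand. Stard4, a soluble carrier of sterols between membranes, stood at 4.67.

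Soat1 and Soat2 encode the acyltransferases that turn cholesterol into cholesteryl esters. Soat2 lies on chromosome 15 (102150526 to 102163469, plus strand) and Soat1 on chromosome 1 (156424525 to 156474331, minus strand). Soat2, the hepatocyte form in mice, stood at 12.0 CPM per kilobase, and Soat1, known from macrophages and adrenal cells, at 0.188. The log2 ratio of Soat2 over Soat1 was 6.00, a 63.8-fold difference per kilobase. The mRNA of Soat1 is long (8371 bases, against 2208 for Soat2), and before division by length the ratio was 16.8-fold. Per kilobase of coding length the log2 ratio was 4.11. Soat1 shares 2563 annotated bases with Gm37648 on the opposite strand, for which no level was found. In whole liver, fewer cells of a type and less RNA per cell cannot be told apart. The 5 Kupffer cell and macrophage markers ran from an average log2 CPM of 2.25 (Adgre1) to 6.36 (Clec4f).

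Npc1l1 (chromosome 11, 6211013 to 6230143, minus strand), the sterol importer of the intestinal brush border and the target of ezetimibe, was at the edge of detection. Its average log2 CPM was -3.19, close to the floor of -3.78. This corresponds to an estimated 8 reads over all 8 libraries, with an exact 95% Poisson interval of 3.45 to 15.8 that covers counting error only. Of the enterocyte markers, Vil1 was at -1.53 and Lct at -3.39, Cdx2 had no reads and Fabp2 stood at 6.43. Its counting error was 35.4%, against 0.405% for Ebp, the best counted gene.

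**Figure D4:**
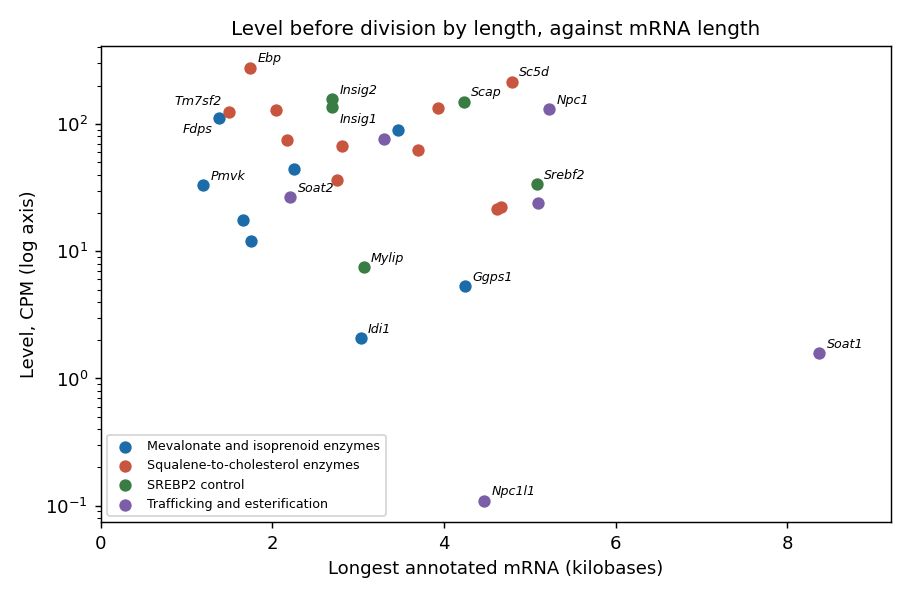
CPM (log axis) of the 30 genes against the length of their longest annotated mRNA in kilobases, coloured by role. Sc5d, Scap and Npc1 keep high CPM with long mRNAs, Soat1 is the longest at 8371 bases, and Npc1l1 lies far below the rest.

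Other genes of the pathway outside the 30 gave a frame for these levels. Of 22 such genes, 21 were above the median of all genes with reads and 12 were above the upper quartile, with a median average log2 CPM of 4.97. Lbr, the nuclear envelope protein with the same reductase activity as Tm7sf2, stood at 1.95 CPM per kilobase, against 82.7 for Tm7sf2. Of the site proteases that release SREBP2 in the Golgi, Mbtps1 stood at 13.7 CPM per kilobase and Mbtps2 at 0.781. Srebf1, whose protein drives fatty acid synthesis, stood at 22.3 CPM per kilobase, above the 6.67 of Srebf2.

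The 30 genes were spread over 16 chromosomes. Chromosome 13 held 4 of them (Hmgcs1, Mylip, Ggps1 and Idi1), and Ebp and Nsdhl were the 2 on the X. Apart from Fdps and Pmvk, the closest members of one chromosome, Idi1 and Ggps1, were 5158208 bases apart. Across the 30 genes the order by CPM and the order per kilobase had a Spearman's rho of 0.917, given as a description across genes of the same libraries.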

How the data were processed

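Per the labels, the authors trimmed reads with Trimmomatic, checked them with FastQC, aligned them to GRCm38 with STAR, counted them with featureCounts and compared genotypes with edgeR. Versions, annotation, strand setting and any filter on low counts are not given in the sources used here. The authors' deposited table holds 1 average log2 CPM per gene over the 8 libraries, which was used. Its other numeric columns (fold change, F, p-value and adjusted p-value of V227A against wild-type) hold the authors' own contrast and were not used. Values of single libraries were not used here, so no test was run and no mean and SD can be given.

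Reads per library were estimated from the lowest level and an assumed prior count of 2. As a check, summed reads over the libraries came within 0.1 of an integer for 99.9% of the 2378 genes estimated at 1 to 5 reads. The size of each library is unknown. The arithmetic of this step was tested on simulated data. Lengths and positions came from GENCODE vM21, and 94.8% of genes with reads had a length. Overlaps between genes were taken over whole gene spans, introns included, and are not named for every member. The levels per kilobase assume that reads cover the longest mRNA. Promoters and microRNAs came from RefSeq (GRCm38.p6). Python 3.11.15, pandas 2.3.3, numpy 2.4.6, scipy 1.17.1 and matplotlib 3.10.9 were used.

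The members and lists were chosen with earlier results of these data known. All 30 members are named. Other genes come from 1 list of 22 pathway genes and 10 lists of cell markers. Besides the sterol response element and its longer form, the motifs were added later. Promoter windows were matched by Entrez ID for Hmgcs1 and 23 others, and Fdps, Fdft1, Sqle, Stard4, Npc1 and Soat2 had none here. Protein sequences were not used here. Some genes of the pathway list are not reported here.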

Additional observations from a re-analysis of the deposited data

How the results depend on the processing

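No paired analysis was possible because the table holds no values per library, and for the same reason no liver could be left out. The count of genes above the median level stayed between 24 and 29 of 30 under each alternative run. The percentile of the list's median level was 88.1 among all genes with reads, 80.8 among genes with an average log2 CPM of at least 0, and 86.7 per kilobase of all annotated exons. For Insig2 over Insig1 the log2 ratio was 0.39 per kilobase of coding length and 0.0243 per kilobase of all annotated exons. For Soat2 over Soat1 it was 4.11 per kilobase of coding length, 4.07 in CPM and 6.22 per kilobase of all annotated exons. The share of the squalene-to-cholesterol enzymes was 55.2% per kilobase of the longest mRNA and 54.7% per kilobase of all annotated exons. With 1 more letter, an A, in front of TCACNCCAC, 0 genes held a sterol response element. These moves follow from the length, background or letters put in. All annotated exons were chosen as a length after seeing the data. Without the prior count the log2 ratios were 0.19 and 6.06 and the share 52.4%. Depth limits Npc1l1 most, with a counting error of 35.4%.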
